A study of Schizosaccharomyces pombe with 4 samples.

Results

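The features annotated on the mitochondrial chromosome of *Schizosaccharomyces pombe* were read out in NET-Seq libraries of *exo2*Δ cells. The members are all entries of the deposited table on the chromosome named MT, other than coding-sequence parts. They number 39 of the 9139 features of this kind in the table. They are 11 protein-coding entries, 25 tRNA genes, 2 rRNA genes and 1 antisense XUT, an Exo2-sensitive lncRNA. No measured value entered the rule that chose them, though earlier results of these data were known. NET-Seq sequences the 3′ ends of RNAs that come down with RNA polymerase II (RNAPII). All 4 libraries come from exponentially growing cells of strain YAM2507, which carries a Flag tag on the RNAPII subunit Rpb3 and a deletion of *exo2*, the gene of a 5′-3′ exoribonuclease. The 2 IP libraries hold RNA purified with RNAPII, and the 2 input libraries were made from the same 2 biological samples without that purification. Libraries of the WT strain, and an IP from cells without the tag, were not analysed here.

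The mitochondrial chromosome is not transcribed by RNAPII. In fission yeast, its genes are read by Rpo41, a nuclear-encoded polymerase of a single subunit that resembles those of bacteriophages. The annotated genes lie on 1 strand and are transcribed into long precursors. The tRNA genes stand between the other genes, and excision of the tRNAs by RNase P and RNase Z sets many ends of the rRNAs and mRNAs. The encoded proteins are the core of cytochrome c oxidase (Cox1, Cox2, Cox3), cytochrome b of the bc1 complex (Cob1), 3 subunits of the ATP synthase (Atp6, Atp8, Atp9) and a protein of the small mitochondrial ribosomal subunit (Var1, named Rps3 by RefSeq). The level of mitochondrial RNA in the RNAPII immunoprecipitate was compared with its level in the input.

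The 8 tRNA genes with the highest and lowest IP over input are shown first, since they mark both ends of the range. Each sequence is the gene on the + strand of the mitochondrial chromosome, 5′ to 3′, from the RefSeq annotation of ASM294v3, with the anticodon in capitals. For tRNA-Glu.01 the anticodon letters were not found after a T in the stretch searched, and no base is in capitals. The 4 highest are the genes at chrMT:4591-4665, chrMT:14083-14155, chrMT:18059-18131 and chrMT:17462-17534, and the 4 lowest those at chrMT:14316-14387, chrMT:14494-14565, chrMT:18406-18478 and chrMT:2858-2930.
SPMITTRNAMET.01: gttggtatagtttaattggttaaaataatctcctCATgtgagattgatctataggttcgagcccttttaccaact
SPMITTRNAMET.02: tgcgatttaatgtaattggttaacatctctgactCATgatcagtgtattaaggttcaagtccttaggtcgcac
SPMITTRNAALA.01: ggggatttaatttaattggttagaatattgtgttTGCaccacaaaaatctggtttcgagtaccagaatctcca
SPMITTRNAARG.02: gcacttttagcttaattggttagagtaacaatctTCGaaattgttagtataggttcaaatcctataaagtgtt
SPMITTRNAGLY.01: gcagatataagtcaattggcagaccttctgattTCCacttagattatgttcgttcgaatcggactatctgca
SPMITTRNATRP.01: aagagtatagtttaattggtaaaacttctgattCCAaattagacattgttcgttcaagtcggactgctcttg
SPMITTRNAGLU.01: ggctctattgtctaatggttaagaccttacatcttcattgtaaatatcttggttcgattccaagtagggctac
SPMITTRNALYS.01: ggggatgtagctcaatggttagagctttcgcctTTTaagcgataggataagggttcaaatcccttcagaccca
These identifiers are shortened below, so that SPMITTRNAMET.01 is tRNA-Met.01. Both tRNA-Met genes carry the anticodon CAT, and RefSeq names them trnM(cau)e and trnM(cau)f. tRNA-Ile.02, trnI(cau) in RefSeq, carries CAT too. It is not at the upper end, with a mean log2 IP over input of -1.25 in the deposited values.

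The deposited table gives normalized reads, which are uniquely mapped reads multiplied by a factor of the library, and the density, in normalized reads per nt of the feature. The IP replicates hold 3338808 and 6962801 reads on the 9139 features, and the input replicates 10172688 and 9114952. All 39 members had reads in all 4 libraries. The fewest were 44, on the antisense *XUT0001*, and no other member had fewer than 153. The 2 IP replicates lay within 1.5-fold of each other for 37 of the 39 members. The exceptions were tRNA-Met.02, where replicate 2 was 2.73-fold above replicate 1, and tRNA-Arg.02. The 2 input replicates lay within 1.5-fold for all 39. As a check of the genotype, the longest coding exon of *exo2* had a density of 0.0113 and 0.0104 in the IP and 0.00212 and 0.00210 in the input, against 0.158 and 0.140 in the IP and 0.0203 and 0.0227 in the input over the rest of the gene.

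**Figure D1:**
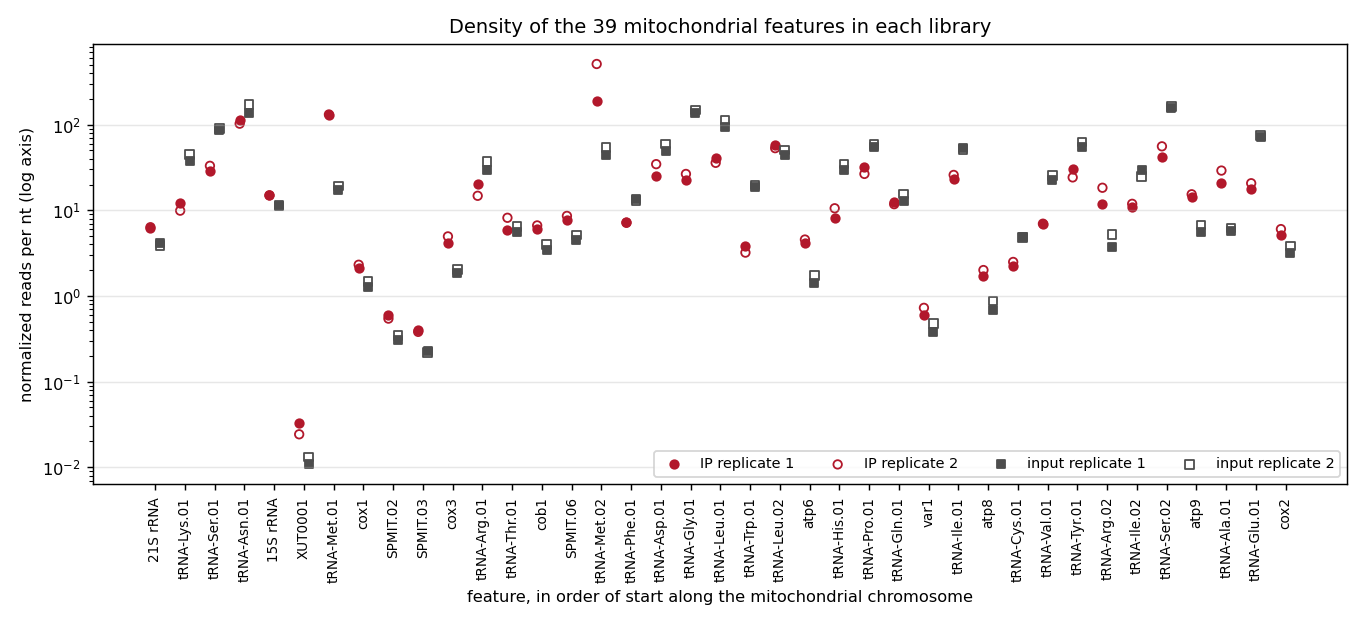
Density of the 39 mitochondrial features in each library, in normalized reads per nt on a log axis, with the features in their order along the chromosome. Circles are the 2 IP libraries and squares the 2 input libraries (filled, replicate 1, and open, replicate 2). *XUT0001* lies at 0.0109 to 0.0326 in the 4 libraries, and tRNA-Met.02 stands at 187 and 510 in the IP, above its input.

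Mitochondrial features took a similar share of both kinds of library, but of different makeup. They held 4.47% and 5.44% of the reads on all features in the IP, against 4.46% and 4.87% in the input. In these shares the mitochondrial sum counts each nested intron reading frame only within its gene, while the total of all features counts it again. The IP over input was 1.00 and 1.12, and the shares of IP and input overlapped. An exact permutation test over the 4 libraries gave a two-sided p of 0.667. The smallest p this design allows is 0.333, so the test could not have called a difference. Without tRNA-Met.02, the shares were 4.06% and 4.31% in the IP and 4.36% and 4.75% in the input, so that the direction turned. This alternative was chosen after seeing the data.

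Within the mitochondrial reads, protein-coding genes took 30.1% and 27.8% in the IP, against 16.9% and 17.8% in the input. The rRNA genes took 26.2% and 21.8% in the IP and 19.0% and 17.3% in the input. The tRNA genes took 43.7% and 50.3% in the IP and 64.1% and 64.8% in the input. In these 3 shares the IP and input libraries did not overlap, which with 2 libraries against 2 gives an exact permutation p of 0.333, the smallest this design allows. In reads, not per length, the leading features were *cob1* (14.9%) and the 15S rRNA gene (14.4%) in IP replicate 1, and tRNA-Met.02 (20.8%) and *cob1* (13.7%) in IP replicate 2. The 15S rRNA gene led both input replicates, with 10.4% in replicate 2.

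The share of the whole library depends on nuclear tRNA genes, which held 5.23% and 4.06% of the reads in the IP and 71.0% and 71.8% in the input. When all tRNA genes, nuclear and mitochondrial, were left out, mitochondrial features held 2.71% and 2.90% of the remaining reads in the IP and 6.13% and 6.84% in the input. Their IP over input was then 0.442 and 0.423. The deposited factors bring all libraries close to the same total. On that scale nearly every feature of the genome stands higher in the IP, and the median log2 IP over input of the 8651 features tested was 2.41. A second scale, on which each library was centred on its median nuclear protein-coding gene, moved this median to -0.07. Both scales are given below, as "deposited" and "relative". A relative value below 0 means less IP over input than a typical nuclear protein-coding gene.

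On the relative scale, the IP held less of nearly every mitochondrial feature. Of the 39 members, 36 were lower in the IP and 0 higher (limma with trend, Benjamini-Hochberg adjusted p under 0.05 over 8651 features). Over all features tested, 26% were called, 16.6% lower and 9.39% higher. At an unadjusted p under 0.05, 1 member, tRNA-Met.01, was higher, and edgeR and DESeq2 also called 0 higher after adjustment, with 1 at the unadjusted p. The count higher was 2 without IP replicate 1, where tRNA-Met.01 and tRNA-Met.02 passed, and 1 without input replicate 2. The share called over all features was counted for the main fit only. In that fit the median of the 39 members was -2.27, against -0.07 over all features tested. The 3 members not called were tRNA-Met.01, tRNA-Met.02 and tRNA-Ala.01. With limma without trend, 30 members were lower, and *cox3*, *atp6*, *atp8*, *atp9* and *XUT0001* were not called, with adjusted p between 0.0605 and 0.0888. The call of tRNA-Arg.02 was lost there as well (adjusted p = 0.267).

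On the deposited scale, 17 members were higher in the IP and 18 lower, where 93.1% of all features tested were called, 91.6% higher and 1.43% lower. The 17 were the 11 protein-coding entries, the 21S rRNA gene, *XUT0001* and 4 tRNA genes, and the 18 were all tRNA genes. The median of the members was 0.21. The count higher was 10 without IP replicate 1 and 11 without IP replicate 2, and *cox1*, *cob1*, *SPMIT.06*, *var1*, *cox2* and the 21S rRNA gene were lost in both. *cob1* and *SPMIT.06* were also lost without input replicate 1, and the 21S rRNA gene without input replicate 2. With no filter on low values the count higher was 14, and *cob1*, *SPMIT.06* and the 21S rRNA gene were lost (adjusted p of 0.0999, 0.0802 and 0.0852). A further scaling set equal totals without nuclear tRNA genes. With it, 1 member was higher and 33 were lower. The share called over all features was not counted for this scaling, nor for the fits without 1 library or with no filter. The direction of the protein-coding and rRNA genes thus holds for the deposited scale only.

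**Figure D2:**
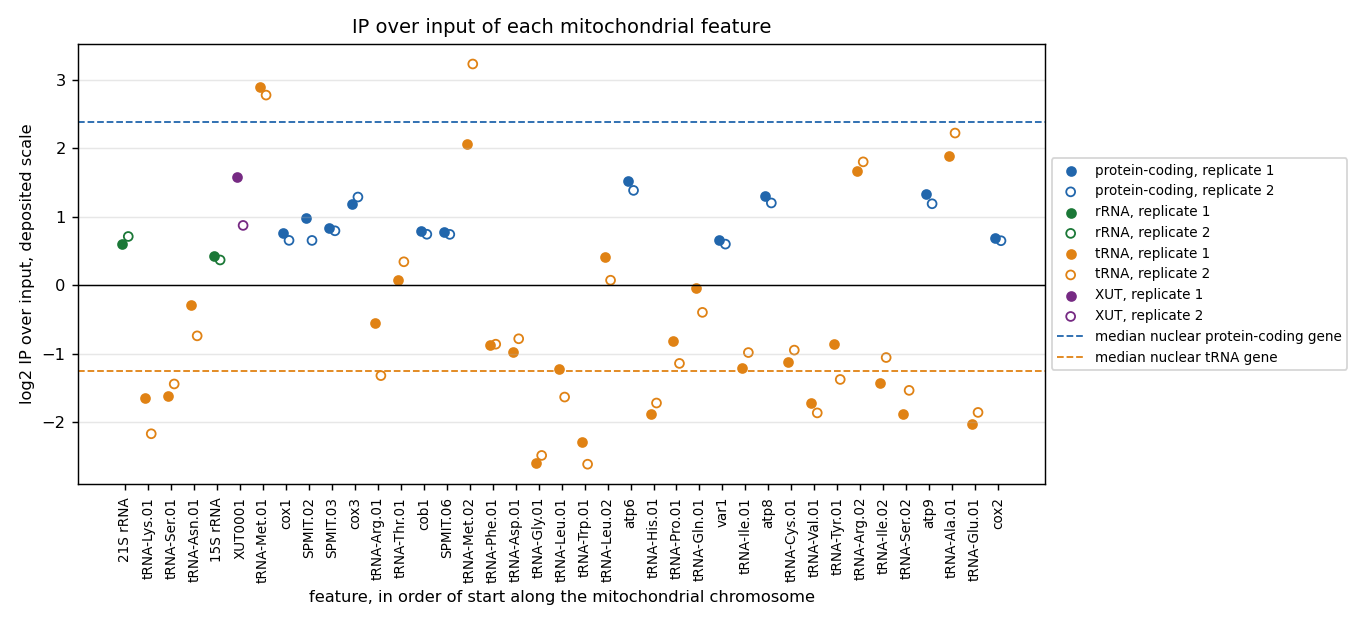
Log2 IP over input of each mitochondrial feature on the deposited scale, in order along the chromosome, with filled points for replicate 1 and open points for replicate 2. The dashed lines are the medians of nuclear protein-coding genes (2.39) and nuclear tRNA genes (-1.25). Protein-coding genes lie between 0.60 and 1.53 on this scale, below the nuclear protein-coding median, and the direction turns under equal totals without nuclear tRNA genes.

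The 8 mitochondrial protein-coding genes not within introns, with *cox1* and *cob1* taken introns included, were among the densest of the genome in every library. Their median density was 4.14 and 4.75 in the IP and 1.63 and 1.88 in the input. The median of the 5118 nuclear protein-coding genes was 0.0865 and 0.0833 in the IP and 0.0162 and 0.0140 in the input. Each of the 8 genes except *var1* lay above 99% of the nuclear genes in all 4 libraries, and *var1* above 95.0% to 98.8% of them. Their order was the same in IP and input (Spearman's rho of the mean densities 1, Pearson's r of the log2 densities 0.97, 8 genes of the same libraries, as a description).

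Genes of the ATP synthase had the highest IP over input of the protein-coding genes, together with *cox3*. *atp6*, the subunit a gene, had a density of 4.13 and 4.55 in the IP and 1.43 and 1.74 in the input, a log2 change of 1.46 ± 0.16 (SE, n = 2 each, limma adjusted p = 3.8e-05) deposited and -1.02 (adjusted p = 0.00103) relative. *atp9*, the gene of the membrane ring subunit, was the densest protein-coding gene, with 14.3 and 15.4 in the IP and 5.64 and 6.73 in the input. Its log2 change was 1.27 deposited and -1.22 relative. *atp8*, the shortest of these genes, had 1.69 and 2.01 in the IP and 0.684 and 0.871 in the input, a log2 change of 1.25 deposited and -1.23 relative. IP and input did not overlap in any of these 3 genes on the deposited scale, where 91.6% of all features tested were called higher.

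Genes of cytochrome c oxidase differed among themselves. *cox3* had 4.15 and 4.95 in the IP and 1.83 and 2.03 in the input, a log2 change of 1.24 deposited and -1.25 relative. *cox2*, whose protein carries the CuA centre, had 5.17 and 6.03 in the IP and 3.19 and 3.84 in the input, a log2 change of 0.67 deposited and -1.81 relative. *cox1*, the gene of the catalytic subunit, had 2.14 and 2.31 in the IP and 1.26 and 1.47 in the input over its whole length, introns included. Its log2 change was 0.71 deposited (SE 0.19, limma adjusted p = 0.0070) and -1.77 relative. *cob1* had 6.03 and 6.65 in the IP and 3.47 and 3.97 in the input over its whole length, intron included. Its log2 change was 0.77 deposited and -1.71 relative. On the deposited scale, the log2 IP over input of its exons was 1.03 and 0.92, and of its intron 0.76 and 0.72. *var1* was the least dense of the 8, with 0.607 and 0.726 in the IP and 0.383 and 0.479 in the input, and had the lowest relative value of the protein-coding genes, -1.85. On the deposited scale, where 91.6% of all features tested were called higher, the IP replicates of each of these genes lay above the input replicates. All 11 protein-coding entries were lower on the relative scale, between -1.85 and -1.02, where 21.4% of 5032 nuclear protein-coding genes were called lower.

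**Figure D3:**
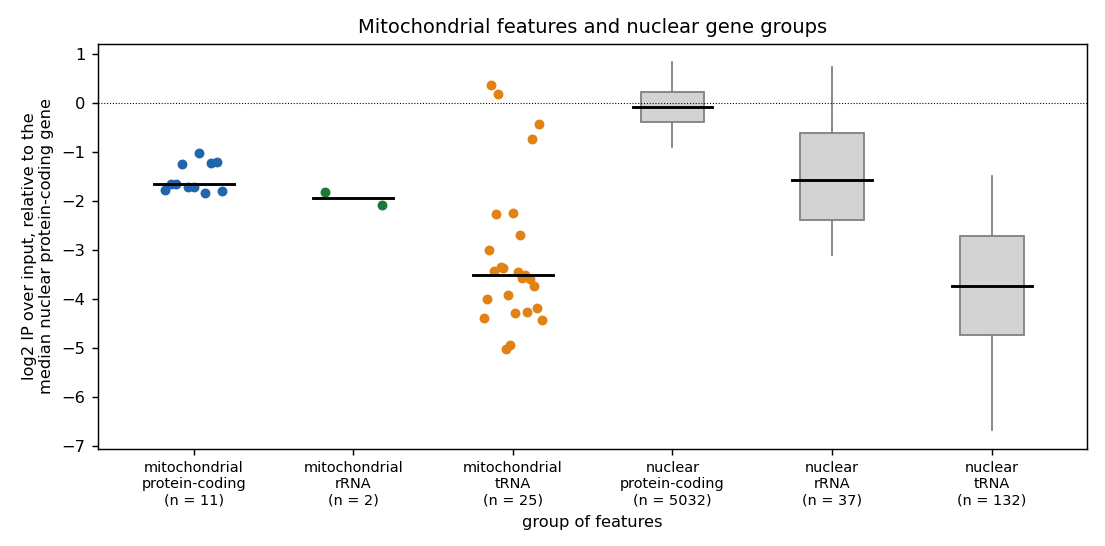
Log2 IP over input relative to the median nuclear protein-coding gene, as fitted by limma. Points are single mitochondrial features. Boxes hold the middle of the nuclear groups (25th to 75th percentile) with lines to the 5th and 95th percentile, and black bars are medians. The 11 protein-coding entries have a median of -1.66 and the 25 tRNA genes one of -3.52, against -0.10 for nuclear protein-coding and -3.73 for nuclear tRNA genes.

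*cox1* and *cob1* are split by introns, which differed in density. RefSeq annotates the introns of *cox1* as group I and that of *cob1* as group II, both kinds of self-splicing RNA that can hold a reading frame. *SPMIT.02* and *SPMIT.03* are the reading frames within *cox1* and *SPMIT.06* the one within *cob1*. By their coding-sequence parts, the exons of *cox1* had a density of 4.47 and 4.97 in the IP and 2.68 and 3.15 in the input. Its introns, by subtraction, had 0.497 and 0.439 in the IP and 0.266 and 0.279 in the input. The intron density was thus 0.111 and 0.0882 of the exon density in the IP, and 0.0993 and 0.0885 in the input. The IP and the input overlapped in this ratio.

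In *cob1* the intron was denser than the exons. The exons had 3.04 and 3.09 in the IP and 1.48 and 1.64 in the input, and the intron 7.42 and 8.29 in the IP and 4.39 and 5.04 in the input. Intron over exon was 2.44 and 2.68 in the IP, below 2.96 and 3.08 in the input, with no overlap. The intron held 84.1% and 85.3% of the reads of *cob1* in the IP and 86.5% and 87.0% in the input. Most of these reads lay on *SPMIT.06*, with 7.66 and 8.60 in the IP and 4.45 and 5.14 in the input. The 102 nt of the intron outside *SPMIT.06* went the other way on the deposited scale, with 1.58 and 1.01 in the IP and 3.07 and 2.81 in the input. *SPMIT.02* had 0.603 and 0.544 in the IP and 0.306 and 0.345 in the input, and *SPMIT.03* had 0.402 and 0.381 in the IP and 0.225 and 0.219 in the input. The log2 change of the 3 reading frames was 0.82, 0.82 and 0.76 deposited and -1.66, -1.66 and -1.72 relative, in the order *SPMIT.02*, *SPMIT.03*, *SPMIT.06*.

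These values rest on reads that map uniquely. In ASM294v3, 82.8% of the 30-nt windows of the RefSeq feature for *SPMIT.03* occur once in the genome, 95.8% of those of *cox1* and 99.7% of those of *cob1*. RefSeq's feature is longer than the deposited *SPMIT.03*, and the part of this in its density was not tested.

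**Figure D4:**
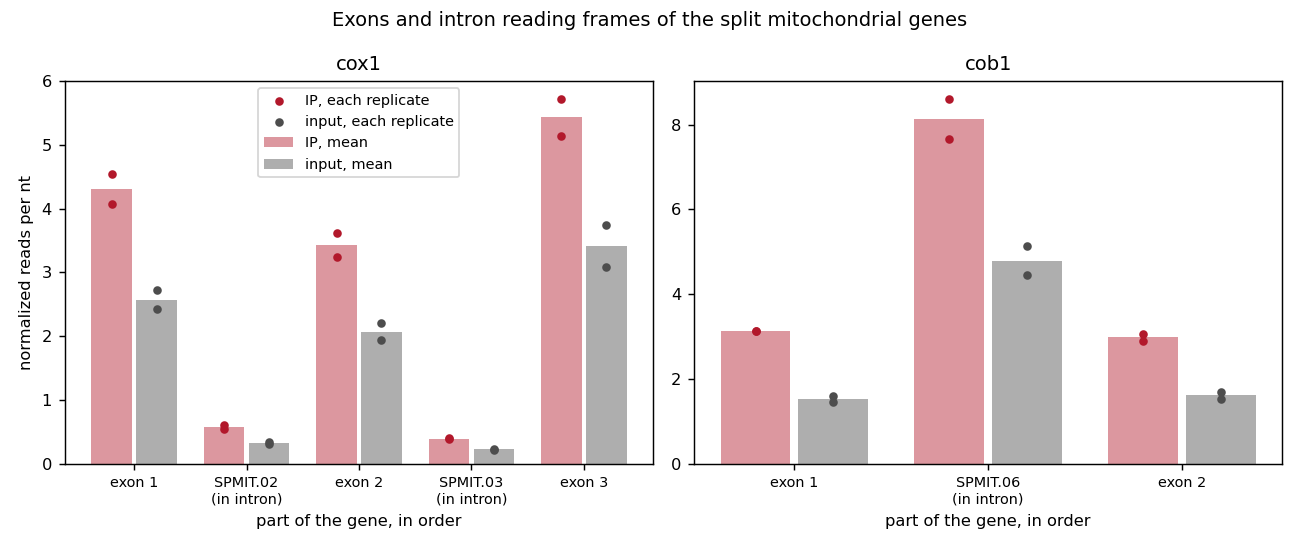
Density of the exons and intron reading frames of *cox1* and *cob1*, in normalized reads per nt, with IP bars left of input bars. Bars are means of 2 libraries and points are the single libraries. In *cox1* the reading frames lie below the exons in both kinds of library, and in *cob1* the reading frame lies above the exons, at 7.66 and 8.60 in the IP and 4.45 and 5.14 in the input.

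Of the rRNA genes, the 21S gene was higher in the IP on the deposited scale and the 15S gene was not called, and both were lower on the relative scale. The 21S rRNA gene, which encodes the RNA of the large mitochondrial ribosomal subunit, had 6.25 and 6.34 in the IP and 4.10 and 3.87 in the input. Its log2 change was 0.66 ± 0.22 (SE, n = 2 each, limma adjusted p = 0.0204) deposited and -1.82 relative. Without either IP replicate, without input replicate 2, or with no filter on low values, the deposited call was lost, with limma adjusted p between 0.0791 and 0.103. The 15S rRNA gene, of the small subunit, had 15.1 and 15.0 in the IP and 11.2 and 11.6 in the input. Its log2 change was 0.40 ± 0.24 (SE, limma adjusted p = 0.143) deposited and -2.08 (adjusted p = 6.6e-05) relative. DESeq2 with the deposited factors called it higher (adjusted p = 0.00415). Nuclear rRNA genes had a median relative value of -1.58 (37 genes).

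The only member on the - strand is *XUT0001*, which lies at positions 3202 to 4550 of the chromosome named MT (ASM294v2) within the 15S rRNA gene at 3131 to 4552, on its opposite strand. It had 44 and 69 reads in the IP and 46 and 50 in the input, with exact 95% Poisson intervals of 32.0 to 59.1 and 53.7 to 87.3 in the IP and 33.7 to 61.4 and 37.1 to 65.9 in the input, for counting error only. Its density was 0.0326 and 0.0242 in the IP and 0.0109 and 0.0132 in the input. The 15S rRNA gene was 462 and 617 times denser than this antisense XUT in the IP, and 1031 and 876 times denser in the input. How many of these reads stem from the + strand was not tested. The log2 change was 1.22 (limma adjusted p = 0.00190) deposited and -1.27 (adjusted p = 0.00485) relative, and the deposited call was lost without IP replicate 1 (adjusted p = 0.0705). Among the 1638 XUTs of the table, *XUT0001* was denser than 88.1% and 82.5% in the IP and 96.6% and 98.0% in the input.

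The tRNA genes covered the widest range of the members. Their density ran between 2.22 and 187 in IP replicate 1 and between 2.49 and 510 in IP replicate 2, with medians of 20.9 and 24.2. In the input it ran between 3.76 and 157 in replicate 1 and between 4.81 and 171 in replicate 2, with medians of 37.7 and 44.6. Fitted log2 changes ran between -2.54 and 2.84 on the deposited scale, with a median of -1.04, and between -5.03 and 0.36 on the relative scale, with a median of -3.52. Nuclear tRNA genes had a median of -3.73 there and 123 of 132 were called lower, against 22 of the 25 mitochondrial ones. The log2 IP over input of the 25 genes was close between replicate 1 and replicate 2 (Pearson's r = 0.968, as a description), whereas densities of IP and input were less alike (r = 0.533 for log2 densities).

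At the upper end stood 4 tRNA genes. tRNA-Met.01 had 131 and 131 in the IP and 17.4 and 19.1 in the input, a log2 change of 2.84 ± 0.15 deposited (SE, n = 2 each) and 0.36 relative (limma adjusted p = 0.0893). Over its alternatives, the relative value passed the threshold with a pseudocount 10 times larger, without IP replicate 1 and without input replicate 2 (adjusted p of 0.0137, 0.0455 and 0.0467). tRNA-Met.02 had 187 and 510 in the IP and 44.7 and 54.2 in the input. Its log2 change was 2.65 deposited and 0.17 relative (adjusted p = 0.796), and the relative value was 0.91 without IP replicate 1, -0.57 without IP replicate 2 and -0.08 without input replicate 1. The side on which this gene lies thus changed with the libraries left out.

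tRNA-Ala.01 had 20.9 and 29.1 in the IP and 5.66 and 6.22 in the input, a log2 change of 2.06 deposited and -0.43 relative (limma adjusted p = 0.0919). With the replicate number as a block, the relative value was called, with an adjusted p of 0.00255. It was also called without IP replicate 2 (-0.68), without input replicate 1 (-0.60) and when centred on the median of all features tested (-0.49). tRNA-Arg.02 had 12.0 and 18.3 in the IP and 3.76 and 5.25 in the input, a log2 change of 1.74 deposited and -0.74 relative (adjusted p = 0.0433). Its relative call was lost without input replicate 2 (-0.40, adjusted p = 0.179), and also with no filter on low values, a pseudocount 10 times smaller, limma without trend and DESeq2 (adjusted p between 0.0807 and 0.326). On the deposited scale, where 91.6% of all features tested were called higher, the IP replicates lay above the input replicates in all 4 genes. They do not lie side by side: tRNA-Met.01 follows the 15S rRNA gene, tRNA-Met.02 follows *cob1*, tRNA-Arg.02 lies in the cluster after *atp8* and tRNA-Ala.01 follows *atp9*.

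At the lower end, tRNA-Gly.01 had 22.8 and 26.6 in the IP and 138 and 149 in the input, a log2 change of -2.54 deposited and -5.03 relative. tRNA-Trp.01 had 3.78 and 3.21 in the IP and 18.5 and 19.7 in the input, a log2 change of -2.45 deposited and -4.93 relative. tRNA-Glu.01 had 17.5 and 20.7 in the IP and 71.6 and 75.1 in the input, a log2 change of -1.95 deposited and -4.43 relative. These genes thus stood lower in the IP on both scales.

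tRNA-Lys.01, directly after the 21S rRNA gene, had 12.0 and 9.90 in the IP and 37.7 and 44.6 in the input, a log2 change of -1.91 deposited and -4.39 relative. tRNA-Gly.01 and tRNA-Trp.01 lie in the same cluster as tRNA-Met.02, so that both ends of the range occur among neighbours. The densest tRNA genes in the input were tRNA-Ser.02, tRNA-Asn.01 and tRNA-Gly.01. tRNA-Ser.02 had 42.4 and 55.8 in the IP and 157 and 162 in the input, a log2 change of -1.71 deposited and -4.19 relative. tRNA-Asn.01, which ends at the base before the 15S rRNA gene, had 112 and 103 in the IP and 137 and 171 in the input.

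The deposited log2 change of tRNA-Asn.01 was -0.51 (limma adjusted p = 0.0468) and was lost without any of IP replicate 1, IP replicate 2 or input replicate 2, with adjusted p between 0.171 and 0.227. It was also lost with a pseudocount 10 times smaller, with limma without trend and with no filter on low values (adjusted p of 0.0585, 0.0677 and 0.117). Its relative value was -2.99. The other 15 tRNA genes had mean log2 IP over input between -1.81 and 0.24 on the deposited scale. Of them, tRNA-Thr.01, tRNA-Leu.02 and tRNA-Gln.01 were not called there, and all were lower on the relative scale.

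The 3′ end of a tRNA is completed after transcription, when an enzyme adds CCA, which eukaryotic tRNA genes generally do not encode. The 3 genome bases after each gene (RefSeq, ASM294v3) were compared with CCA, base by base, a comparison chosen after the values were seen. None of the 3 bases was equal in 12 mitochondrial tRNA genes, and 1 to 3 were equal in 13. In the IP, the genes with 1 to 3 equal bases had a median density of 28.6 and 26.6 and those with 0 had 11.4 and 11.8. In the input, genes with 1 to 3 equal bases had a median of 55.5 and 62.9. Those with 0 had 15.4 and 17.3, a ratio of 3.60 and 3.63. Input density did not rise with the number of equal bases within the first group, where most genes had 1. tRNA-Arg.01, with 3 equal bases, had 29.5 and 36.9, and tRNA-His.01, with 2, had 29.8 and 34.8. Both lay below all other genes of that group. The deposited tRNA-Arg.01 is 77 nt long, against 72 nt in RefSeq, so that its density covers a longer stretch. The 10 tRNA genes with the lowest mean input density all had 0 equal bases. Next came tRNA-His.01 (32.3) and tRNA-Arg.01 (33.2), which have equal bases. tRNA-Met.02 and tRNA-Asp.01, with 0 equal bases, had mean input densities of 49.4 and 54.5. Both were denser than tRNA-Lys.01 (41.1) and tRNA-Leu.02 (47.3), which have 1, so the groups overlapped in the input. All 4 genes at the upper end of IP over input had 0 equal bases. Of the 4 at the lower end, 1 had 0 equal bases, tRNA-Trp.01. The mean log2 IP over input had a median of -1.43 with 1 to 3 equal bases and -0.54 with 0, with overlapping ranges.

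The same count was made in nuclear tRNA genes. The 68 with 1 to 3 equal bases had input medians of 1.27 and 1.35, and the 103 with 0 had 0.215 and 0.223. Of these, 53 and 71 had reads in all libraries. Only uniquely mapped reads were kept, and the part of this in the nuclear values was not tested. GC content moved with the mean input density of the mitochondrial tRNA genes as well (Spearman's rho 0.715 over 25 genes, as a description). The median GC content was 38.7% with 1 to 3 equal bases and 36.3% with 0. The part of the added CCA and of GC content in these densities was not tested. All 30-nt windows of the 25 tRNA genes occur once in the genome.

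**Figure D5:**
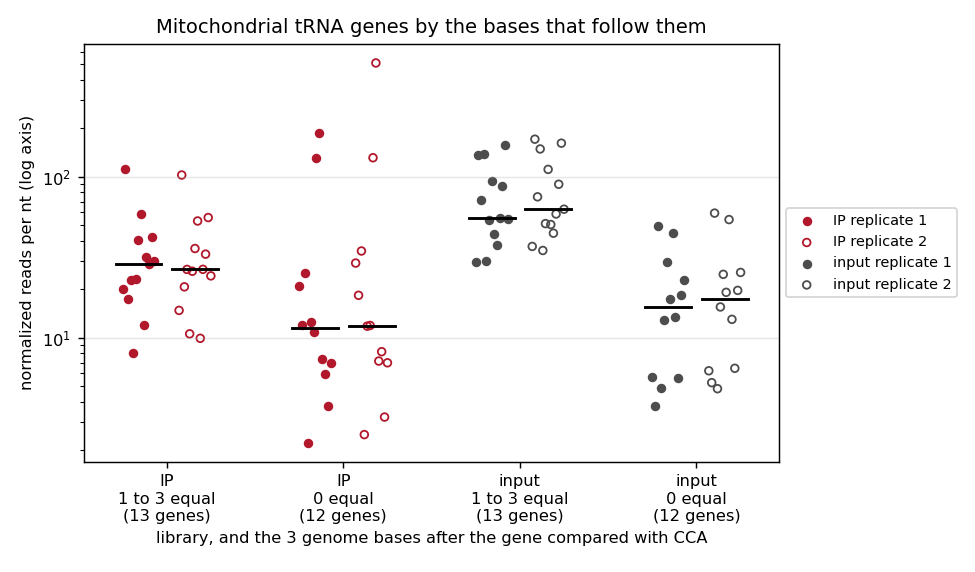
Density of the 25 mitochondrial tRNA genes, in normalized reads per nt on a log axis, by library and by whether any of the 3 genome bases after the gene equals CCA at that place. Filled points are replicate 1, open points replicate 2 and bars medians. In the input the medians are 55.5 and 62.9 for genes with 1 to 3 equal bases and 15.4 and 17.3 for genes with 0, and in the IP the highest genes are among those with 0.

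Nuclear genes whose products act in the mitochondrion were set beside these values. Of 19 nuclear genes of mitochondrial RNA synthesis, processing and translation activation, 1 was higher on the relative scale, 4 were lower and 14 were not called, with a median of -0.09. On the deposited scale all 19 were higher, where 91.6% of all features tested were, with a median of 2.39 against 2.41 over all features tested. *rpo41*, the gene of the mitochondrial RNA polymerase, had a density of 0.109 and 0.103 in the IP and 0.0300 and 0.0267 in the input, and was lower on the relative scale, at -0.58. The other 3 lower were *ppr4*, *ppr6* and *mtf2*, and the 1 higher was *ppr2*, at 1.69. The ppr genes encode pentatricopeptide repeat proteins, a family that binds organellar RNA.

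Of 29 nuclear genes for subunits of complexes III, IV and V, which assemble with the mitochondrially encoded proteins, 3 were higher (*qcr9*, *qcr10*, *rip1*), 14 lower and 12 not called on the relative scale. The median was -0.38, and the lowest value was -1.05, in *atp2*. All 29 were higher on the deposited scale, where 91.6% of all features tested were, with a median of 2.10 and values between 1.43 and 2.98, against 0.63 to 1.46 in the mitochondrial protein-coding entries. Both lists stand beside 16.6% lower and 9.39% higher over all features tested on the relative scale.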

How the data were processed

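NET-Seq libraries of 1 strain were analysed, 2 IP and 2 input from 2 biological replicates. The authors kept uniquely mapped single-end reads, aligned with Bowtie, tolerating 2 mismatches, to ASM294v2. The counting tool and the basis of the factors are not given in the sources used here. The deposited values of IP replicate 1 are plain read counts. Those of IP replicate 2 and of both inputs were deposited as a signal, the reads times a factor of that library. 1 read is worth 0.474 normalized reads in IP replicate 2 and 0.318 and 0.357 in input replicates 1 and 2. Dividing by these steps gave whole reads for 100% of the values (tolerance 0.01 reads). The density columns are a deposited signal per nt. The 4 pooled columns were not used.

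limma 3.58.1 with trend was fitted to log2(normalized reads + 0.318) over the 8651 features above 0 in 2 or more libraries, which understates changes of low features, with Benjamini-Hochberg adjustment. The second fit centred each library on its median nuclear protein-coding gene. edgeR 4.0.16 and DESeq2 1.42.0 on the recovered reads (R 4.3.3), other pseudocounts, filters and scalings, libraries left out and a replicate block were alternatives. The labels state that IP and input of 1 number come from the same biological sample. Over 4633 nuclear genes, the replicate differences of IP and input had r = 0.15. The fits were tested on simulated data with 200 features changed by a log2 of 2 and no common shift between IP and input. limma recovered 196 with 0 false calls, edgeR 199 with 8 and DESeq2 193 with 1. The common shift of the deposited scale, and replicates that differ as in tRNA-Met.02, were not simulated.

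Shares were computed on recovered reads and tested by exact permutation. Named tRNA genes are the 4 highest and 4 lowest by mean log2 IP over input and the 3 highest by mean input density, and all other kinds of members are named. Members and lists were chosen with earlier results of these data known. Symbols of the lists were matched through the table and RefSeq synonyms. The list's par1 was taken as *SPCC1322.01*, since the table's own par1 is another gene.

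The mitochondrial sequence of the reference is ASM294v3, where 0 of 11 mitochondrial coding sequences read whole at the deposited coordinates, so sequences were taken from RefSeq's own annotation, matched by amino acid and order. 23 of the 25 tRNA genes have the same length in both annotations.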

Additional observations from a re-analysis of the deposited data

How the results depend on the processing

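Without nuclear tRNA genes in the totals, 1 member was higher and 33 were lower in the IP, against 17 and 18 on the deposited scale. The share called over all features was counted for the main fits only, not for these totals or for any alternative below. The fits without 1 library leave 1 sample in a group. Their member counts therefore cannot be set against a share over all features, and whether they are particular to the members was not tested. Values that turned there were -0.31 for *atp6*, -0.51 for *atp9*, -0.52 for *atp8*, -0.54 for *cox3*, -1.001 for *cob1*, -1.06 for *cox1*, -1.10 for *cox2*, -1.14 for *var1*, -0.95 for *SPMIT.02*, -0.96 for *SPMIT.03*, -1.01 for *SPMIT.06*, -1.11 for the 21S and -1.37 for the 15S rRNA gene, -0.56 for *XUT0001* and -0.035 for tRNA-Arg.02. The change follows from the scaling, which shifts all features alike. Leaving out 1 library gave 10 to 16 higher and 16 to 19 lower on the deposited scale, and 0 to 2 higher and 35 to 38 lower on the relative scale. The relative count higher was 1 with a pseudocount 10 times larger. The relative value of tRNA-Met.02 ran between -0.57 and 0.91 without 1 library. With limma without trend, 30 members were lower on the relative scale. The replicate block gave 17 higher and 18 lower deposited, and 37 lower relative, and among the named members changed no call but that of tRNA-Ala.01. The share of mitochondrial features, 0.08 in log2 IP over input, was -1.21 without tRNA genes and -0.12 without tRNA-Met.02. Intron over exon kept its direction without either replicate, between -3.50 and -3.17 in *cox1* and between 1.29 and 1.62 in *cob1* (log2), as did the tRNA medians by equal bases without the genes of unequal length. Of 312 values each, 269 deposited and 292 relative ones kept direction and call. The 2 replicates per group, and 44 to 69 reads on *XUT0001*, limit these values.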
